A study of Mus musculus with 15 samples.

Results

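Promoters of noncoding RNAs were taken as the rows of the deposited promoter annotation whose transcript carries a RefSeq noncoding identifier and whose coverage score exceeded 100. The score is a deposited mean fragment count around each start in the unstimulated cells of both types, and 1726 of the 3130 annotated noncoding starts passed it, among 13559 promoters that passed out of 25881 in all. The 3 noncoding starts just inside the limit scored 100.25 (Speer5-ps1 and 4933411E08Rik) and 100.5 (Mir26a-1), and the 3 just outside it scored 99.75 (Gm14634) and 100 (E030011O05Rik and Mir194-1). By gene symbol the members comprised 871 long noncoding RNAs, 428 microRNAs, 104 small nucleolar RNAs, 125 noncoding variants of coding genes, 124 pseudogenes, 4 other small RNAs and 70 rows without a symbol. The long noncoding class took in symbols of no other class, and so also holds some short structured RNAs, among them 2 starts of Rn4.5s and 1 of Vaultrc5. The 11833 coding promoters that passed served for comparison.

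The study measured nucleosome occupancy by ChIP-MNase, in which chromatin carrying a chosen mark is immunoprecipitated as long fragments and then cut to mononucleosomes with micrococcal nuclease. Mouse dendritic cells (DCs), differentiated from bone-marrow progenitor lines with GM-CSF, were assayed without stimulus or 1 h after 100 ng/ml LPS, and 3T3 fibroblasts, an embryonic fibroblast line, without stimulus or 1 h after 5 ng/ml TNF-α. These 4 H3K4me1 data sets each pool 2 replicates. A further 8 single H3K4me1 libraries covered control fibroblasts and fibroblasts carrying a retroviral shRNA, driven by the U6 promoter, against the BAF remodeller subunits Brg1 and Brm, each with and without TNF-α and with 2 replicates. Finally, 3 libraries from TNF-α-stimulated fibroblasts were precipitated through RNA polymerase II phosphorylated on serine 7 (S7P, 2 replicates) or serine 5 (S5P, 1 library). The study describes its replicates as biological and independent; the p-values below measure the spread between these libraries. The shRNA was not assayed here by the level of its targets, because no expression values of the knockdown cells were used. The paper itself measured both target mRNAs by quantitative RT-PCR and reported that the shRNA reduced them.

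At an active promoter, RNA polymerase II initiates beside a nucleosome-depleted region (NDR), followed by a well-positioned +1 nucleosome. Many long noncoding RNAs are transcribed from such promoters, often divergently from a neighbouring coding gene. Most small nucleolar RNAs and many microRNAs are instead cut out of longer host transcripts, small nucleolar RNAs from introns and microRNAs from hairpins, so that an annotated 5′ end of such an RNA is often a processing site and not a site of initiation. The NDR ratio of a promoter set, used below, is taken within each library. It is the mean occupancy from −150 to 0 bp divided by the mean occupancy from −1000 to −500 bp (the flank). A ratio of 1 means no depletion relative to the flank, and lower values mean a deeper NDR.

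The sequences at the annotated starts show what kinds of site were compared. The first set holds promoters of host genes of small nucleolar RNAs, some of which had deep NDRs in the pooled sets described below. The second holds microRNA starts. Each is given from 150 bp upstream of the start to 49 bp downstream of it, in the direction of transcription and from the mm9 assembly, with every CG dinucleotide in capitals. For Snhg1 the window begins beside the start of its divergent neighbour Slc3a2, 119 bp upstream.
Snhg1, chr19:8797860-8798027 (+): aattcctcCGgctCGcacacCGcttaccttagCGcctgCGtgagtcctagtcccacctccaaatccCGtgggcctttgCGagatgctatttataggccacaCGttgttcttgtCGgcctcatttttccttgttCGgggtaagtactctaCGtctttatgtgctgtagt
Snhg10, chr12:106270440-106270639 (−): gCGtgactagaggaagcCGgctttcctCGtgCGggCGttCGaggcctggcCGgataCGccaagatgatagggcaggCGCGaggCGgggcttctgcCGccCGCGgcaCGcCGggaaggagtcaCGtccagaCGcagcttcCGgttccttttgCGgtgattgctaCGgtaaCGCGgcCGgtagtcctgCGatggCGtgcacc
Dancr, chr5:74488959-74489158 (+): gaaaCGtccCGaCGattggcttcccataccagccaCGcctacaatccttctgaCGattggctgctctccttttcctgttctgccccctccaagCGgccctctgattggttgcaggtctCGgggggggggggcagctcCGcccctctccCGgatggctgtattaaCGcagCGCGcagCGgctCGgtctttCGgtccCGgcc
Snhg12, chr4:131864444-131864643 (+): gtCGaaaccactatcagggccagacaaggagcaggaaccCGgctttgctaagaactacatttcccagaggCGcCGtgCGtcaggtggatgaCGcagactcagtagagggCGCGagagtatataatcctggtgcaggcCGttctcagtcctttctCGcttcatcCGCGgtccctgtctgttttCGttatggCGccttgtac
Mir155, chr16:84714236-84714435 (+): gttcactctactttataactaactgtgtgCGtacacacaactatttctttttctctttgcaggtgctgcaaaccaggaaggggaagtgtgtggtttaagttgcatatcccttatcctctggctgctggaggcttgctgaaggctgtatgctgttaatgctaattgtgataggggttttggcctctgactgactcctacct
Mir29a, chr6:31012698-31012897 (−): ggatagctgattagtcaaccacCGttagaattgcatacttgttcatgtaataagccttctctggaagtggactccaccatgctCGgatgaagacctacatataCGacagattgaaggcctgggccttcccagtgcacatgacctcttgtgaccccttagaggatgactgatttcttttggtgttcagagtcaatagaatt
Mirlet7b, chr15:85537600-85537799 (+): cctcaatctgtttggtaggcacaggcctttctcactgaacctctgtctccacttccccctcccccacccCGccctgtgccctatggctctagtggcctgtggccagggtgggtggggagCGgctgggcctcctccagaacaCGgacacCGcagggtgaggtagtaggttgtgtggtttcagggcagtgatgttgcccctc
The host-gene windows hold 11 CG dinucleotides (Snhg1), 26 (Snhg10), 16 (Dancr) and 14 (Snhg12), against 1 (Mir155), 3 (Mir29a) and 4 (Mirlet7b) in the microRNA windows. In the microRNA windows a mature RNA lies just inside the start: miR-155-5p covers bases 3 to 25, miR-29a-5p bases 16 to 37 and let-7b-5p bases 6 to 27, counted from 1 at the annotated start. A start was called CpG-rich where, over 401 bp centred on it, GC exceeded 50% and CpG occurred at more than 0.6 times the rate expected from base composition. By this criterion 40.8% of long noncoding starts, 11.4% of microRNA starts and 8.74% of small nucleolar starts were CpG-rich, against 59.6% of coding starts.

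Mature sequences were found by symbol in RefSeq (GRCm38.p6) for 330 of the 428 microRNA members. Those shown belong to microRNAs with known roles in immune cells or fibroblasts, with the seed, bases 2 to 8, in capitals.
miR-155-5p: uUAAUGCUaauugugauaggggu
miR-146a-5p: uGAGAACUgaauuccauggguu
miR-146b-5p: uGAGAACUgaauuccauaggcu
miR-223-3p: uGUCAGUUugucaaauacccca
miR-22-3p: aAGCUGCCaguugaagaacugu
miR-17-5p: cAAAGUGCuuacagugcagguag
miR-29a-3p: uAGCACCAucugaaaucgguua
miR-29b-3p: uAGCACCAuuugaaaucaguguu
miR-29c-3p: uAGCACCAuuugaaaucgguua
let-7a-5p: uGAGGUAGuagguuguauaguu
let-7b-5p: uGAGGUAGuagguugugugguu
let-7g-5p: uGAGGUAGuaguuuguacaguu
By seed, miR-146a-5p and miR-146b-5p form one group, the 3 miR-29 RNAs another (3 mature RNAs from 4 members), and the let-7 RNAs share theirs as well (7 mature RNAs from the listed members, of which 3 are shown).

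The box C/D class of small nucleolar RNAs, which direct ribose methylation of ribosomal RNA, is defined by a C box near the 5′ end and a D box near the 3′ end. The 4 with the highest fibroblast expression among the Snord members are printed whole, from mm9, with a C-box match (TGATGA) and the last D-box match (CTGA) in capitals; Snord49a and Snord34 hold no exact TGATGA in their first 20 bases.
Snord82, chr1:88252836-88252902 (−): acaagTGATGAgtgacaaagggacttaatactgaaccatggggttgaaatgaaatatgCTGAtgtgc
Snord49a, chr11:62416963-62417023 (+): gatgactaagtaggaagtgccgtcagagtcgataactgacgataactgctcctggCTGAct
Snord100, chr10:23505561-23505627 (−): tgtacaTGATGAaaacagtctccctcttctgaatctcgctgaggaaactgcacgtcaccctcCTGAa
Snord34, chr7:52381974-52382038 (−): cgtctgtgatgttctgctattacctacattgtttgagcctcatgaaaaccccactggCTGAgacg
On the transcribed strand, TGATGA occurred within the first 20 bases of 18 of the 60 Snord members (30%), of 0 of the 33 Snora members and of 0.437% of all 25881 starts. The motif TATAAA, searched on the same strand from −40 to −16 bp, occurred at 13 of 538 long noncoding starts with no coding start within 1 kb (2.42%), at 1 of 333 with one (0.300%), at 2 of 428 microRNA starts (0.467%), at none of the 60 Snord or 33 Snora starts, and at 2.22% of all starts. The matches describe the letters only.

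Expression was taken from the authors' annotation, which lists one FPKM value per promoter from public RNA-seq of unstimulated DCs and fibroblasts made in other studies. The expressed, 0 and cell-type calls below were therefore not measured in the cells assayed here, and they have no replicates. A promoter was called expressed above 0.02 times the mean of all promoters (0.0507 FPKM in DCs and 1.596 FPKM in fibroblasts). All 6 DC markers (Itgax, Cd74, H2-Ab1, Ptprc, Spi1, Cd86) were higher in DCs, with summed levels of 235 FPKM against 2.34 FPKM in fibroblasts, and all 6 fibroblast markers (Col1a1, Col1a2, Col3a1, Pdgfrb, Thy1, Fn1) were higher in fibroblasts, 2627 FPKM against 31.3 FPKM in DCs. The 4 markers of other cells (Cd3e, Cd79a, Epcam, Pecam1) summed to 0.168 FPKM and 0.343 FPKM, with Cd3e at 0 in both.

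The 3 main RNA types differed in where they were detected. Of the long noncoding promoters, 42.1% were expressed in DCs and 17.2% in fibroblasts, of the microRNA starts 3.04% and 7.24%, and of the small nucleolar starts 25.96% and 71.2%. The fibroblast threshold itself was set largely by small nucleolar RNAs, whose 104 members held 72.1% of the FPKM summed over all promoters, against 9.47% in DCs. With a threshold of 0.02 times the mean of coding promoters, 378 long noncoding promoters in place of 150 counted as expressed in fibroblasts, and 390 in place of 367 in DCs, so the lower fibroblast share of long noncoding RNAs depended on that threshold. Among microRNAs, 374 of 428 were listed at 0 in both cell types. These RNA-seq values count transcripts of about 70 to 90 bases (median annotated length 83 bases for microRNAs and 76 for small nucleolar RNAs), and the part played by library preparation in such values was not tested.

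**Figure D1:**
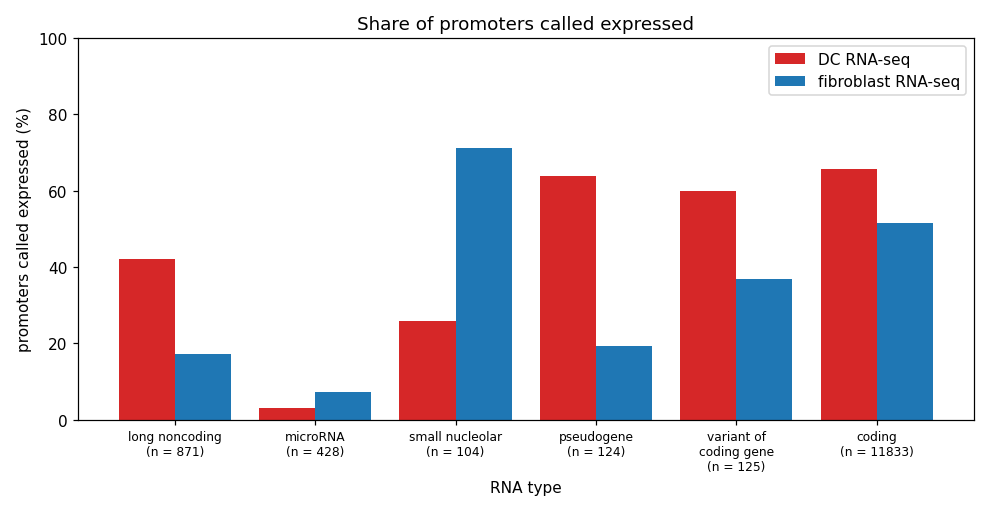
Bars give the percentage of promoters (y axis) called expressed for each RNA type (x axis) in the DC (red) and fibroblast (blue) RNA-seq values, which have no replicates and hence no error bars. Small nucleolar starts rise to 71.2% in fibroblasts, whereas microRNA starts stay at 7.24% or lower in both cell types.

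Noncoding promoters as a whole had shallower NDRs than coding promoters. The NDR ratio of the 1726 noncoding promoters was 0.855 in unstimulated and 0.825 in LPS-stimulated DCs, and 0.846 in unstimulated and 0.836 in TNF-α-stimulated fibroblasts, against 0.663, 0.644, 0.649 and 0.620 for coding promoters. Over the 8 single fibroblast libraries the ratio was 0.866 ± 0.031 (SD, n = 8) for noncoding and 0.719 ± 0.047 for coding promoters, a difference of 0.15 ± 0.032 that was above 0 in 8 of 8 libraries (two-sided exact sign-flip permutation test, p = 0.00781, adjusted p = 0.00893 over 8 contrasts). This p is the smallest that 8 libraries allow, and it applies equally to every contrast below in which all 8 libraries agree in sign. The S5P library gave 0.838 for noncoding and 0.607 for coding promoters, and the S7P libraries 0.875 and 0.855 against 0.783 and 0.768.

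At promoters called expressed in fibroblasts the ratio was 0.785 ± 0.057 for 365 noncoding promoters against 0.5999 ± 0.071 for 6093 coding promoters (SD, n = 8), a difference of 0.18 ± 0.032 in the same direction in 8 of 8 libraries (exact permutation test, adjusted p = 0.00893). With long noncoding promoters alone the difference was 0.079, still above 0 by the same test. Among promoters listed at 0 expression, the ratio was 0.930 ± 0.024 for 770 noncoding and 0.945 ± 0.027 for 1531 coding promoters, and their difference of −0.015 ± 0.039 did not pass (exact permutation test, adjusted p = 0.289), with 6 of 8 libraries below 0 and 2 above. That difference ranged from −0.057 to 0.057 between the single libraries. In the 4 pooled sets its sign was the other way, with 0.993, 0.936, 0.976 and 1.01 for noncoding against 0.911, 0.914, 0.932 and 0.938 for coding promoters (DCs unstimulated and stimulated, then fibroblasts).

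The RNA types differed in turn. Long noncoding promoters had ratios of 0.801 and 0.779 in DCs and 0.791 and 0.752 in fibroblasts (unstimulated, then stimulated), and 0.856 ± 0.034 over the single libraries (SD, n = 8). Small nucleolar starts showed no depletion, with ratios of 1.10, 1.08, 1.02 and 1.11 in the pooled sets and 1.01 ± 0.050 in the single libraries, a difference from long noncoding promoters of 0.16 ± 0.072, above 0 in 8 of 8 libraries (exact permutation test, adjusted p = 0.00893). MicroRNA starts exceeded long noncoding starts by 0.065 ± 0.034, again in 8 of 8 libraries (exact permutation test, adjusted p = 0.00893), but with the NDR window widened to −200 to 50 bp the difference fell to 0.016 and no longer passed (exact permutation test, adjusted p = 0.156). In S7P replicate 1 the order was reversed, with 0.849 for microRNA and 0.892 for long noncoding starts. S7P replicate 2 had 0.909 against 0.847, and the S5P library 0.933 against 0.818. Noncoding variants of coding genes had ratios between 0.554 and 0.633 in the pooled sets and pseudogenes between 0.751 and 0.810.

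The microRNA value depended on 1 locus. Of the 428 microRNA members, 71 lie within introns of the Polycomb-group gene Sfmbt2, with starts from 10389123 to 10439783 on chromosome 2 (mm9), in tandem copies of the families Mir669 (43 members), Mir467 (23), Mir466 (3) and Mir297 (2). Their median score was 1191, against 298 for the other microRNAs, although only 17.9% to 21.4% of their bins held any signal in the single H3K4me1 libraries, against 67.6% to 78.9% for the other microRNAs, and 20 to 28 of the 71 had no fragment in a given one of these libraries. The NDR ratio at Sfmbt2 was 1.19 and 0.683 in the DC sets and 0.922 and 1.18 in the fibroblast sets, but 0.239 to 0.561 in the single libraries. The authors kept fragments that aligned once among promoter regions even where they aligned elsewhere too, and how repeated sequence bore on these values was not tested. Without the locus the 357 remaining microRNA starts had ratios of 1.01, 0.979, 1.03 and 1.03 in the pooled sets and 0.976 ± 0.031 in the single libraries, 0.12 above long noncoding promoters by an alternative chosen after seeing the data (exact permutation test, adjusted p = 0.00893). Removing the locus left the contrast of noncoding with coding promoters at 0.16 and turned the sign of that at 0 expression, to 0.014, and still not past the test.

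**Figure D2:**
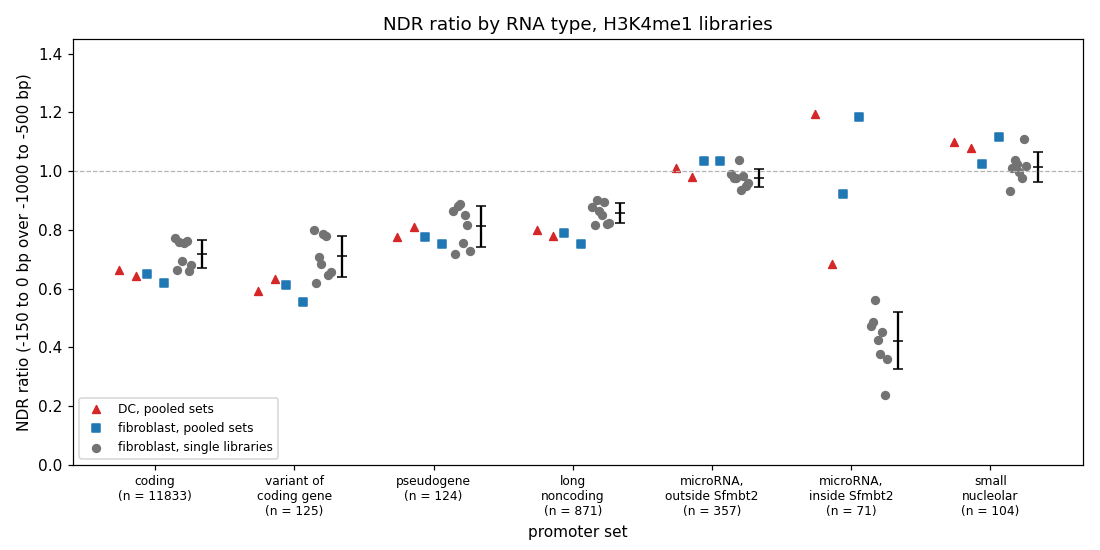
The NDR ratio (y axis, no unit) is plotted for each RNA type (x axis); red triangles are the 2 pooled DC sets, blue squares the 2 pooled fibroblast sets, grey circles the 8 single H3K4me1 fibroblast libraries, and the bar to the right is their mean ± SD. Small nucleolar and most microRNA starts sit near 1, long noncoding starts between 0.752 and 0.903, and the microRNAs inside Sfmbt2 scatter from 0.239 to 1.19.

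Small RNA starts were then set beside the starts of the coding genes that contain them. Of the 104 small nucleolar members, 70 lie in the sense direction inside a coding gene and 28 inside a long noncoding transcript of the same annotation, so that 98 lie in a host of either kind. The 70 had NDR ratios of 1.15, 1.06, 1.00 and 1.10 in the pooled sets, whereas the 48 passing promoters of their coding hosts had 0.446, 0.393, 0.374 and 0.383. In the single libraries the hosts ranged from 0.424 to 0.635 and the embedded small nucleolar RNAs from 0.970 to 1.19, without overlap. The same held for the 118 microRNAs inside coding genes other than Sfmbt2, at 0.874 to 1.08 in the single libraries against 0.498 to 0.729 for the 113 promoters of their hosts. Small nucleolar RNAs that were expressed in fibroblasts (74 members) had a ratio of 1.02 ± 0.043, and those listed at 0 (30 members) 0.994 ± 0.11 (SD, n = 8), a difference that was not tested.

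**Figure D3:**
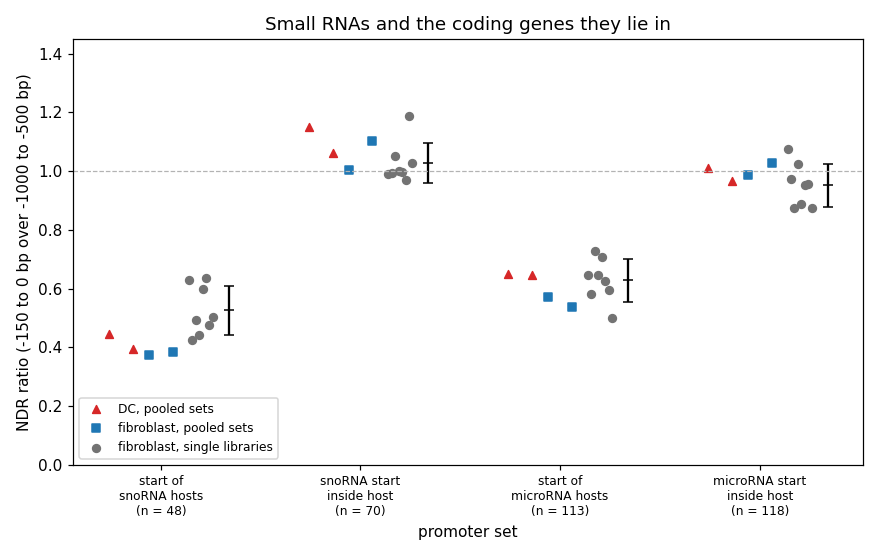
The NDR ratio (y axis, no unit) is plotted for coding promoters that host small RNAs and for the small RNA starts inside them (x axis), with symbols for pooled DC sets (red), pooled fibroblast sets (blue) and single fibroblast libraries (grey) and their mean ± SD. Hosts of small nucleolar RNAs lie at or below 0.635 in the 12 libraries, and the small nucleolar starts inside them at or above 0.970.

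Snord34 lies in an intron of the ribosomal protein gene Rpl13a, Snord82 in one of nucleolin (Ncl) and Snord100 in one of Rps12. Snord82, the most highly expressed member in fibroblasts at 698015 FPKM and listed at 0 in DCs, had NDR ratios of 1.58 and 1.23 in DCs and 1.32 and 1.14 in fibroblasts. Snord34 (166027 FPKM in fibroblasts) had 0.838, 1.19, 1.18 and 1.16. By contrast, the host genes of small nucleolar RNAs that are themselves noncoding had deep NDRs. The 10 listed starts that passed, all CpG-rich and all expressed in fibroblasts, had a median ratio of 0.358 over the pooled sets. The median was 0.828 for all long noncoding members and 0.471 for the 355 that were CpG-rich. Of those 355, 27.6% were expressed in fibroblasts. Dancr, a long noncoding RNA known for its role in differentiation, had ratios of 0, 0, 0.135 and 0 in the pooled sets. It had no more than 0.099 in any single H3K4me1 library, but 0.537 and 0.389 in the S7P libraries. Snhg12 had 0.078, 0.109, 0 and 0 in the pooled sets, but 0 to 0.946 in the single H3K4me1 libraries. Snhg10 had 0, 0, 0.352 and 0 in the pooled sets, but a median of 0.824 over the single libraries (0 to 39.98). Over the 10 starts the medians of the 8 single libraries ran from 0 (Snhg6 and Dancr) to 0.966 (Snhg3). Snhg1, with 7.30 FPKM in DCs and 110 FPKM in fibroblasts, had 0 in both unstimulated sets and 0.685 and 1.40 in the stimulated sets, which shows how coarse a ratio of 1 promoter is. Of the same list, Snhg8 did not pass the score limit and 4 symbols (Gas5, Snhg11, 1500012F01Rik and 2700023E23Rik) were not found in the annotation by that name.

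Of the nuclear and X-linked RNAs, Tug1 (2 starts), Pvt1, Miat and Ftx passed, with a median ratio of 1.03 over their 5 starts, whereas Malat1, Neat1, Xist, Tsix and Jpx fell below the score limit and 2010000I03Rik was not found. Pvt1, which neighbours Myc, had 0.909 and 0.739 in DCs and 1.52 and 1.47 in the pooled fibroblast sets, but 0.517 to 1.61 in the single fibroblast libraries, with a median of 0.785. The imprinted RNAs that passed (2 starts of Meg3, Rian, Mirg and Airn) had a median of 0.585, none of them CpG-rich and 4 of the 5 starts expressed in fibroblasts, but 1 in DCs. The Meg3 start expressed in fibroblasts (21.5 FPKM, and 0 in DCs) had ratios of 0 in both DC sets and 0.290 and 0.475 in fibroblasts, and 0 to 0.604 in the single libraries. Its pooled mean of 0.191 was below the median of the host-gene starts. Mirg (27.3 FPKM in fibroblasts, 0 in DCs) had 0 in both DC sets but 0.747 and 1.59 in fibroblasts. Rian (46.4 FPKM in fibroblasts, 0 in DCs) had 0.707 and 1.51 in DCs and 0.059 and 1.00 in fibroblasts. Their single libraries ranged from 0.124 to 1.08 (Mirg) and from 0.418 to 1.57 (Rian). Airn, the antisense RNA that silences Igf2r, had 0.799 and 0.963 in DCs, where its level was 0.382 FPKM, and 0.382 and 0.380 in fibroblasts, where it was 8.33 FPKM, although its single libraries ranged from 0.069 to 1.79. Ipw, Kcnq1ot1 and Peg13 fell below the score limit, and H19 and Nespas were not found by that symbol.

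The 23 listed starts of the immune and fibroblast microRNA list, which includes the host transcript Mir17hg, had a median ratio of 1.00, with 0 CpG-rich, and 20 were listed at 0 in DCs and 17 in fibroblasts. Mir155, a regulator of inflammatory responses, had 0.648 and 1.09 in DCs and 1.18 and 1.11 in fibroblasts, with 0 FPKM in both cell types. Mir146b, a repressor of Toll-like receptor signalling that shares its seed with Mir146 (printed above), was listed at 34.02 FPKM in DCs and 0 in fibroblasts. Its pooled ratios were 0.798, 0.886, 1.02 and 0.974, but its single-library ratios ran from 0 to 0.362. The let-7 members, which restrain proliferation, spanned pooled means from 0.697 (Mirlet7e) to 1.37 (Mirlet7c-2). Mir21a, Mir142, Mirlet7c-1, Mirlet7f-2 and Mirlet7i fell below the score limit. Among structured RNAs made by RNA polymerase III, Rpph1, the RNA of RNase P, had 0.140, 0.181, 0.539 and 0, with the start of Parp2 176 bp upstream on the other strand. Rmrp, the RNA of RNase MRP, had 0.958, 1.83, 0.435 and 3.57. In the single libraries Rpph1 ran from 0 to 1.21 and Rmrp from 0.979 to 4.18. Of the other listed structured RNAs, Vaultrc5 had 0.169, 0.626, 0.154 and 0.653 in the pooled sets. Rnu11 and Rnu12 had pooled means of 1.51 and 1.05.

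Long noncoding promoters divided by what lay beside them. A coding start lay within 1 kb of 333 of the 871, and 330 of these coding starts were on the opposite strand, 220 of them upstream (head to head) and 110 downstream, so that the noncoding start lay inside the coding transcript. The head-to-head starts were 9 to 920 bp apart, with a median of 159 bp. Head-to-head promoters had ratios of 0.531 and 0.522 in DCs and 0.568 and 0.431 in fibroblasts, and 0.670 ± 0.091 in the single libraries (SD, n = 8), and their 248 coding partner rows had 0.640, 0.515, 0.550 and 0.512, and 0.639 ± 0.11. The overlapping 110 had 0.868, 0.762, 0.795 and 0.827, and 0.897 ± 0.073. Where the coding start was at most 300 bp upstream (179 promoters) the pooled sets had 0.487, 0.461, 0.491 and 0.396 and the single libraries averaged 0.612 ± 0.084. Where it was farther (41 promoters) the pooled sets varied more, at 0.747, 0.819, 0.924 and 0.594 (stimulated fibroblasts), and the single libraries averaged 0.935 ± 0.15, a difference that was not tested.

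Over all noncoding members, the 507 with a coding start within 1 kb had a ratio of 0.755 ± 0.070 and the other 1219 of 0.914 ± 0.023 (SD, n = 8), a difference of −0.16 ± 0.065 below 0 in 8 of 8 libraries (exact permutation test, adjusted p = 0.00893). The 567 CpG-rich members had 0.697 ± 0.071 against 0.952 ± 0.027 for 1158 others (1 had no value), a difference of −0.26 ± 0.074 in the same 8 of 8 (exact permutation test, adjusted p = 0.00893). Where a coding start lies head to head within 300 bp, the window shares DNA with the window of the coding promoter. The difference by nearness is therefore not one of the noncoding promoters alone. Nearness and CpG content overlap too, as 82.3% of the head-to-head starts were CpG-rich. Separated, the 97 long noncoding promoters that were CpG-rich without a coding start nearby had 0.645, 0.576, 0.596 and 0.588 in the pooled sets and 0.701 ± 0.073 in the single libraries, and the 258 with both features had 0.701 ± 0.098. The 75 with a near coding start but not CpG-rich had 0.895 ± 0.074, and the 441 with neither 0.974 ± 0.030.

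**Figure D4:**
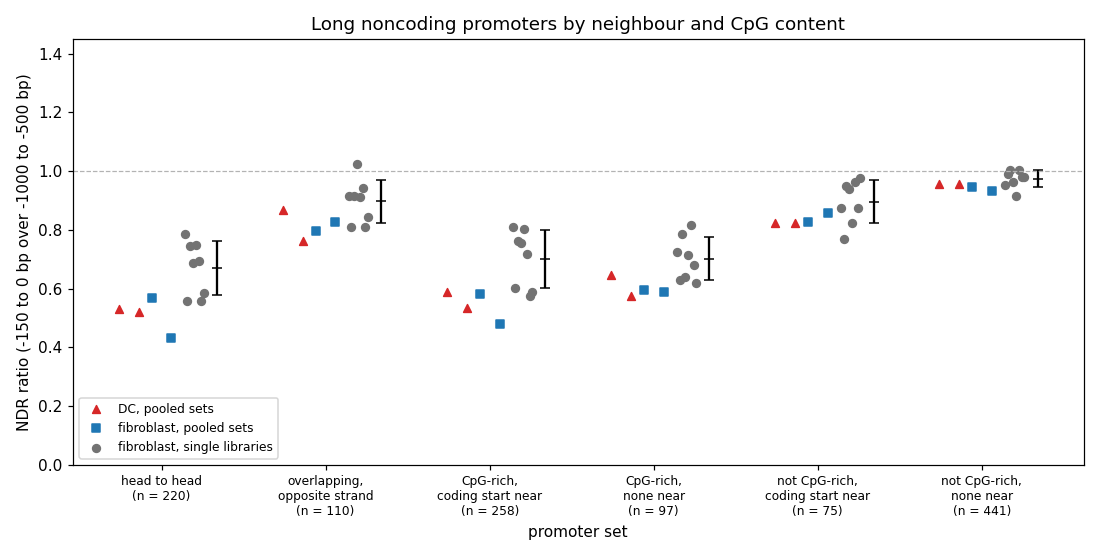
The NDR ratio (y axis, no unit) of long noncoding promoters is plotted by the position of the nearest coding start and by CpG content (x axis), with symbols for pooled DC sets (red), pooled fibroblast sets (blue) and single fibroblast libraries (grey) and their mean ± SD. Head-to-head and CpG-rich promoters lie below promoters with neither feature, which stay between 0.915 and 1.00.

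Expression divided the members as well. Noncoding promoters expressed in fibroblasts had a ratio of 0.785 ± 0.057 against 0.930 ± 0.024 for those listed at 0, a difference of −0.15 ± 0.059 below 0 in 8 of 8 libraries (exact permutation test, adjusted p = 0.00893), and with long noncoding promoters alone the difference was −0.28. With scores above 200 it was −0.075, still below 0 by the same test (exact permutation test, adjusted p = 0.0104). The 69 expressed long noncoding promoters without a coding neighbour showed an NDR of their own, with ratios of 0.667 and 0.663 in the pooled fibroblast sets and 0.712 ± 0.090 in the single libraries, against 0.952, 0.939 and 0.974 ± 0.036 for the 234 listed at 0. Expression and CpG content overlap, as 35 of the 69 but 20 of the 234 were CpG-rich. Over all long noncoding promoters the counts were 98 of 150 expressed and 51 of 294 at 0. The 2 features were not separated here. In the mean profile of unstimulated fibroblasts these 69 had their +1 maximum at 135 bp with an occupancy of 2.85, beside a maximum of 2.63 at the same position for expressed coding promoters. In unstimulated DCs the 182 such promoters expressed there had a lower maximum than expressed coding promoters, 2.07 against 2.345, and their ratios were 0.768 and 0.760 without and with LPS. These maxima come from mean profiles of unequal numbers of promoters (69 and 6093 in fibroblasts), without a spread, and were not tested. Promoters with a near coding start had 0.651 ± 0.11 when expressed (81 promoters) against 0.922 ± 0.071 for 60 listed at 0. In the S5P library the expressed long noncoding promoters had 0.456 and those at 0 had 0.978, and in the S7P libraries 0.748 and 0.716 against 0.931 and 0.886. Over all noncoding promoters S7P replicate 1 went the other way, with 0.8645 for expressed promoters against 0.854 for those at 0, whereas S7P replicate 2 had 0.808 against 0.897. In contrast, the 30 expressed microRNA starts outside Sfmbt2 had 1.05 ± 0.12 and the 315 at 0 had 0.969 ± 0.026.

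**Figure D5:**
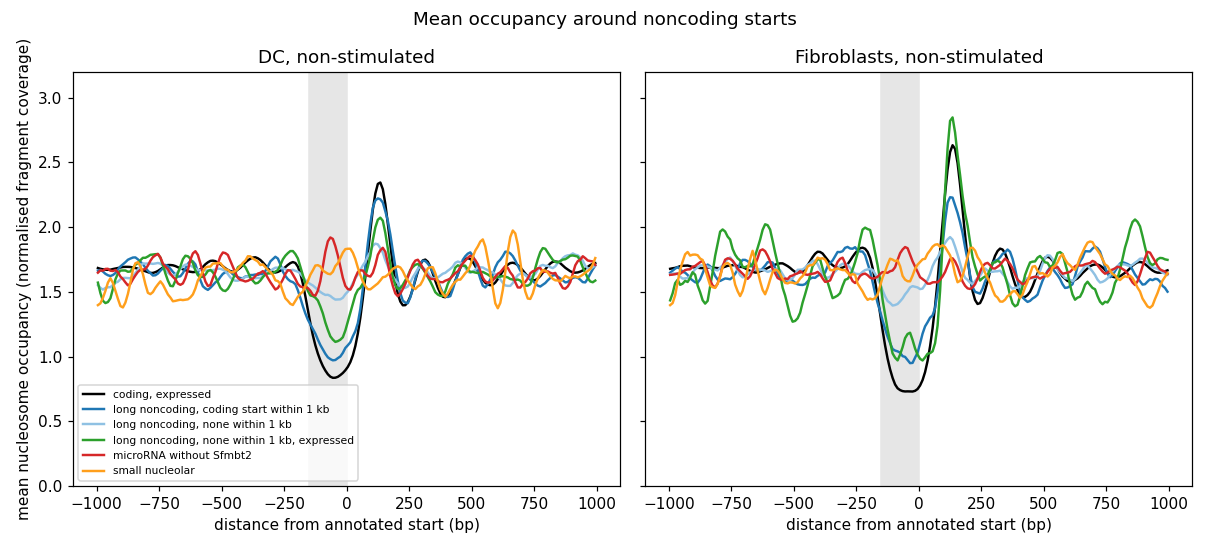
Mean nucleosome occupancy (y axis, normalised fragment coverage) is plotted against distance from the annotated start (x axis, bp) in unstimulated DCs (left) and fibroblasts (right), with the NDR window shaded. Expressed coding promoters (black) and long noncoding promoters near a coding start (blue) or expressed without one nearby (green, called in the cell type shown) dip upstream of the start and peak near 135 bp, whereas microRNA starts outside Sfmbt2 (red) and small nucleolar starts (orange) show no dip. The microRNA starts inside Sfmbt2 are not plotted.

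Cell-type-specific expression was compared over 76 members expressed in DCs and listed at 0 in fibroblasts and 106 of the reverse. The DC-only members had ratios of 0.840 and 0.853 in DCs and 1.02 and 0.955 in the pooled fibroblast sets, but 0.834 to 1.04 in the single fibroblast libraries. The fibroblast-only members had 0.994 and 1.00 in DCs and 0.968 and 1.01 in the pooled fibroblast sets. The difference of the 2 sets was −0.155 and −0.151 in the DC sets and between −0.139 and 0.054 in the 10 fibroblast libraries, a cell-type difference of −0.11 (exact permutation test of cell-type labels over 12 libraries, two-sided p = 0.0303, the smallest it allows). It did not pass under 7 of the 9 other processing settings tried, libraries left out aside, and for long noncoding RNAs alone (39 against 24 promoters) it was −0.046 (exact permutation test, p = 0.636). Both DC sets pool 2 replicates, whereas 8 of the 10 fibroblast libraries are single libraries of control or knockdown cells. Cell type and pooling are thus partly confounded in this test. In the 2 pooled fibroblast sets the difference between the member sets was 0.054 and −0.060. The types differed between the sets: 48 of the 106 fibroblast-only members were small nucleolar and 27 microRNA, whereas 39 of the 76 DC-only members were long noncoding. DC-only expression was highest for Rn4.5s (812 FPKM at each of 2 starts) and Mir106b (534 FPKM, inside Mcm7), followed by Mir5131 and Mir3074-1. The fibroblast-only members were led by Snord82, Snord49a, Snord100 and Snord34, beside a row without a symbol.

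Neither TNF-α nor BAF knockdown gave a change that passed the test at any noncoding promoter. The patterning level of each promoter, the match of its occupancy to the mean profile of expressed coding promoters, was tested with limma across all 13559 promoters and the 8 single libraries. For TNF-α, 0 of 1726 members passed (0% of all promoters called) and 88 had an unadjusted p below 0.05 (background 5.71%, members 5.10%). For BAF knockdown the counts were 0 (0%) and 97 (5.83%, members 5.62%), and for their interaction 0 (0%) and 111 (5.63%, members 6.43%). The smallest p for knockdown belonged to Mir329, a microRNA of an imprinted cluster, whose level was −7.07, −2.92, −5.11 and −11.6 in the control libraries (2 unstimulated, then 2 stimulated) and 12.3, 14.02, 8.84 and 4.78 in the knockdown libraries. The difference was 16.7 ± 2.22 (SE) at this member, which was picked for its small p, and it did not pass (limma, adjusted p = 0.578). For TNF-α the smallest p belonged to Gm3219, with a difference of −11.0 ± 1.84 (limma, adjusted p = 0.864), followed by 6330407A03Rik and Uckl1os. For the interaction it belonged to 1700011M02Rik, Mir467a-2 and Mir467a-1, the last 2 within Sfmbt2, none passing (limma, adjusted p = 0.858 for each). Replicate 1 of both knockdown groups carries another code in its deposited name, possibly for nuclease units, than the other 6 single libraries, and leaving out either gave 0 calls in each comparison.

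Single promoters were measured sparsely. In the single H3K4me1 libraries 64.1% to 76.4% of the bins at members held signal, and 36 to 47 members had no fragment, so that a ratio of 1 promoter in 1 library can be 0 or undefined. Between replicates, bin occupancies at members correlated with r from 0.153 to 0.207 (a description over 4 pairs of libraries, whose bins are not independent). At the extremes, 8 of 870 long noncoding members with a defined ratio were at exactly 0 in all 4 pooled sets. Of these 8, 7 were head to head with a coding start, as were 220 of all 871 long noncoding members. Among the 7 were 1700052K11Rik (98 bp), 4930405A21Rik (77 bp) and A230056J06Rik (111 bp). Their single-library ratios ran from 0 to 0.985, 0 to 2.78 and 0 to 20, with medians of 0, 0.996 and 0.337. The highest long noncoding ratios, at 1700011M02Rik, 4930413F20Rik and F630028O10Rik, had pooled means of 13.3, 2.98 and 2.52 with SDs of 24.3, 3.41 and 4.35 (n = 4 data sets). Among microRNAs 18 of 428 were at exactly 0 in all 4 pooled sets, Mir484, Mir466 and a copy of Mir669a-1 among them, and the highest were copies of Mir467a-2 and Mir467a-1 inside Sfmbt2. Among small nucleolar RNAs, Snord116l2, Snora78 and DQ267100 had the lowest pooled means (0, 0.105 and 0.357, the value of Snord116l2 from the 2 fibroblast sets alone) and Snord123, Snord68 and Snora64 the highest (2.26, 2.22 and 1.91).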

How the data were processed

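ChIP-MNase fragments were aligned by the authors to mm9 (bowtie in their methods; the submitters' processing notes name Bowtie2 and bedtools), kept if unique among promoter regions, counted in 10 bp bins and normalised to the surrounding 1 kb. The deposited occupancy signal covers −1000 to 1000 bp in 200 bins, reaches at most 20 in pooled sets and 10 in single libraries, and holds no read depth per library, so no counting interval is given. The deposited FPKM values come from public RNA-seq of other studies, without replicates. Columns holding the authors' own calls of inducible genes were not used.

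Set ratios were compared per library by exact two-sided sign-flip permutation and promoters by limma 3.58.1 in R 4.3.3, each tested on simulated data, with Benjamini-Hochberg adjustment at 0.05 (Python 3.11.15, numpy 2.4.6, pandas 2.3.3, scipy 1.17.1). Sequence and CpG content came from the mm9 genome, exons from GENCODE of that build and RNA types from gene symbols. Members named were those on listed gene sets, the 3 lowest and highest ratios per main type, the 3 smallest limma p per comparison and the 5 highest cell-type-specific levels. Members and lists were chosen with earlier results of these data known. Alternatives covered windows, flanks, scale, score, annotation, thresholds and libraries.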

Additional observations from a re-analysis of the deposited data

Results flagged for a closer look

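The NDR ratio of all noncoding promoters moved in opposite directions with TNF-α in control and knockdown fibroblasts. In control cells it was 0.887 and 0.830 without TNF-α and 0.895 and 0.892 with it, a change of 0.035. In knockdown cells it was 0.855 and 0.8998 without and 0.836 and 0.833 with it, a change of −0.043. It was flagged because both stimulated libraries lay above both unstimulated ones in control cells and below them in knockdown cells; the difference between the changes, −0.078, was not tested on this ratio, and limma's interaction of the patterning level gave 0 calls. Coding promoters differed in the same direction and by more, −0.097: they went from 0.771 and 0.664 to 0.759 and 0.695 in control cells and from 0.7555 and 0.761 to 0.661 and 0.682 in knockdown cells, with overlap in control cells. None of the noncoding subsets examined (expressed, listed at 0, long noncoding with or without a near coding start, microRNA outside Sfmbt2, small nucleolar) separated in this way. Groups of 2 libraries are too small for a check of single outlying libraries.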

How the results depend on the processing

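Of the contrasts of the NDR ratio, those between noncoding and coding promoters (all, and expressed), small nucleolar and long noncoding promoters, near and far coding starts, CpG content and expression kept their direction and passed the exact permutation test under each alternative tried, although expressed minus 0 expression shrank from −0.15 to −0.075 with scores above 200 and grew to −0.28 for long noncoding promoters alone, where the expressed contrast with coding promoters was 0.079. The microRNA contrast fell to 0.016 with the window from −200 to 50 bp. The contrast of promoters at 0 expression turned to 0.02 with scores above 200, 0.013 with the square root of occupancy and, by alternatives chosen after seeing the data, 0.014 without the Sfmbt2 locus and 0.019 for long noncoding promoters alone; leaving out 1 library gave −0.026 to −0.0091, and −0.026, past the threshold, without control stimulated replicate 2. The cell-type contrast did not pass with the wider window (−0.073), scores above 200 (−0.10) or the square root (−0.021). Nor did it pass without members near a coding start (−0.10) or sharing a coding symbol (−0.11). The same held with the coding threshold (−0.13, added later) and for long noncoding promoters alone (−0.046, added later). Leaving out 1 single fibroblast library gave −0.12 to −0.10, each past the threshold, and neither DC set was left out. Leaving out 1 library gave 0.14 to 0.15 and 0.18 to 0.19 for the noncoding against coding contrasts (all and expressed). One row per start changed no value.

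With the replicate block, 0 members passed limma in each comparison, as under each other alternative. The numbers do not pair the libraries (correlations of 0.00056 to 0.0119). The single libraries are sparse, so only sets, not single promoters, could be compared with precision. The causes of these shifts were not tested.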
